A study of Coprinopsis cinerea with 29 samples.

Results

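In Coprinopsis cinerea, the grey shag mushroom, 104 of 12003 gene models were lower in the lamellae of young fruiting bodies than in every other stage or tissue sampled. They were chosen from the deposited log2 RPKM table, in which RPKM is a read count scaled to the length of the gene model and an adjusted library total. The adjustment matched the TMM scaling factors of the counts to within 0.00415 (log2). The level of a gene model was taken as log2(RPKM + 1), and the median over the libraries of each group was formed. A gene model was kept where the median in young lamellae lay at least 1.5 below the median of each of the other 8 groups. The distance to the nearest of these 8 medians is called the gap. The levels in young lamellae therefore chose the gene models, and are given as a description without a test.

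Polyadenylated RNA was sequenced from 29 samples in 9 groups of strain #326, whose label gives the markers A43mut, B43mut and pab 1-1. The groups were lamellae of young fruiting bodies (YFB_L, n = 3), vegetative mycelium (VM, n = 3), secondary hyphal knots (H, n = 3), stage 1 primordia (P1, n = 4), stage 2 primordia (P2, n = 4), stipe of young fruiting bodies (YFB_S, n = 3), cap of young fruiting bodies (YFB_C, n = 3), stipe of fruiting bodies (FB_S, n = 3) and cap with lamellae of fruiting bodies (FB_CL, n = 3). All groups carry these markers, which include mutations of the A and B mating-type factors, and no wild-type strain is among them. The recorded culture was 5 days at 37 °C in the dark, then 25 °C with light and dark periods of 12 h each. The submitters call the samples biological replicates, but the sources used here give neither the cultures nor the number of mushrooms behind each. The mature cap was sampled with its lamellae, and no group holds mature lamellae alone.

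Lamellae, or gills, are the plates under the cap that carry the hymenium, the layer in which basidia form. In a basidium nuclei fuse, meiosis follows, and spores are budded off. In this species meiosis runs nearly in step across a cap, which made it a model for meiosis in mushrooms. The identifiers of the gene models are numbers of the genome project, to which the files attach neither name nor product nor position. None of the 104 identifiers matched the reference table of 13657 genes from another strain (0 matches), so no role is given, no sequence is shown, and the labelled tissues could not be checked against marker genes.

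"Silenced" describes few of them. The median level in young lamellae was below 1 RPKM for 8 of the 104 gene models and below 10 RPKM for 79, and it ran from 0.269 to 287 RPKM. No library of lamellae had 0 reads for any of them (0 gene models), and the 3 libraries together held between 12 and 72811 reads per gene model, with a median of 614.5. The 104 are therefore called low in young lamellae here. The gap had a median of 1.85 and reached 5.20. It was at least 3 for 17 gene models, at least 2 for 48 and under 2 for 56. In RNA of a whole tissue, fewer cells that express a gene and less RNA per cell cannot be told apart.

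**Figure D1:**
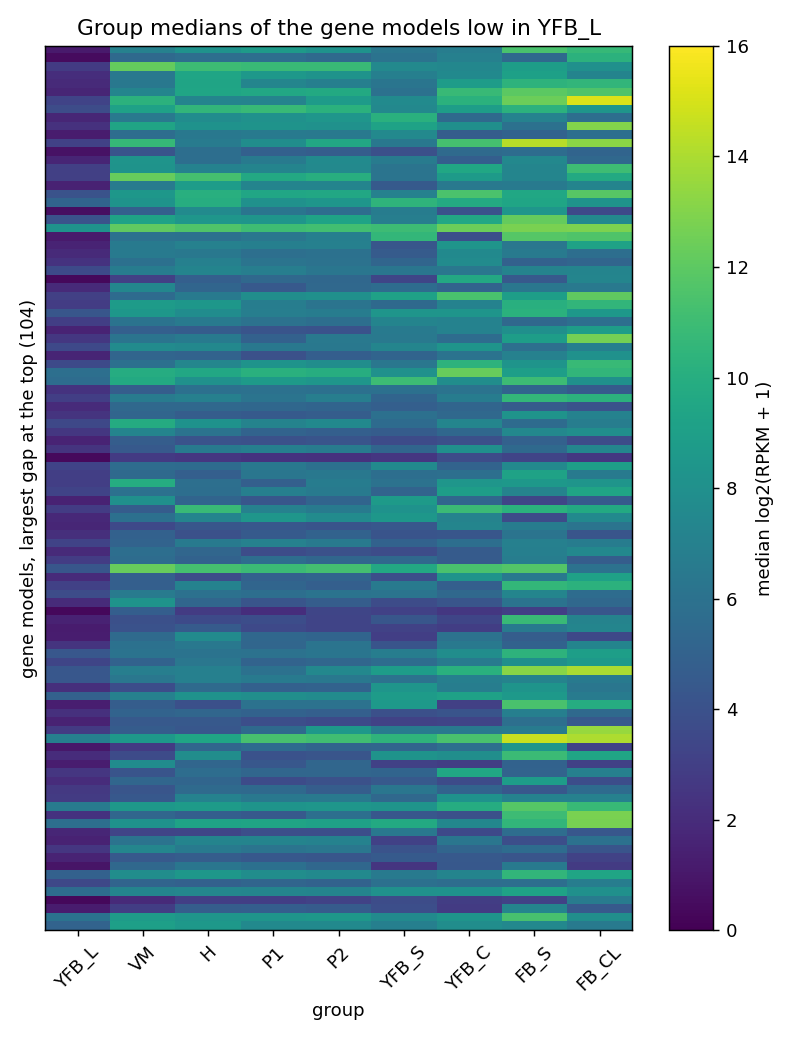
Heat map of the group medians of log2(RPKM + 1) for the 104 gene models (rows, largest gap at the top) in the 9 groups (columns, young lamellae first). The YFB_L column is the darkest in every row by the choice of the rows, and the FB_S and FB_CL columns hold the brightest cells.

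The rule cuts through a continuous range of gaps. Gene model 428679, just inside, had a gap of 1.51, with a median of 33.7 RPKM in YFB_L against 97.5 RPKM in FB_CL, its next lowest group. With library size alone as the scaling its gap was -0.0596. Its YFB_L libraries were unequal, at 10.4, 33.7 and 34.8 RPKM, and its gap was 2.31 without YFB_L replicate 3 and 1.13, outside the rule, without FB_CL replicate 1. Gene model 243593, just outside, had a gap of 1.498, with 2.09 RPKM in YFB_L against 7.72 RPKM in YFB_S. The same rule with another group as the low one gave 111 gene models for VM, 0 each for H, P1 and P2, 32 for YFB_S, 9 for YFB_C, 127 for FB_S and 82 for FB_CL. Gene models low in 1 group alone were thus found for VM and for all 5 dissected parts, and for none of H, P1 and P2.

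Across groups, the median level of the 104 was 4.38 RPKM in YFB_L, against 63.4 RPKM in VM, 93.5 in H, 69.1 in P1, 78.9 in P2, 69.1 in YFB_S, 109 in YFB_C, 156 in FB_S and 152 in FB_CL. The median over all 12003 gene models was 14.7 RPKM in YFB_L and between 12.5 and 16.3 RPKM in the other groups. Outside the lamellae these gene models had more than the middle level, which the rule favours, and in 87 of them the lowest of the 8 other medians was still at least 10 RPKM. Their share of all counted reads was 0.381% ± 0.351 in YFB_L (SD, n = 3), against 4.03% ± 0.220 in VM, 3.71% ± 0.986 in H, 2.33% ± 0.276 in YFB_S, 4.42% ± 1.60 in YFB_C, 8.38% ± 0.835 in FB_S and 9.08% ± 0.750 in FB_CL (SD, n = 3 each). The YFB_L libraries were unequal, at 0.786%, 0.193% and 0.164% in replicates 1 to 3, and without replicate 1 the mean was 0.178%. Among the caps replicate 3 stood at 6.27%, and without it the mean was 3.49%. In P1 the share was 3.14% ± 0.626 and in P2 3.29% ± 0.733 (SD, n = 4 each).

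**Figure D2:**
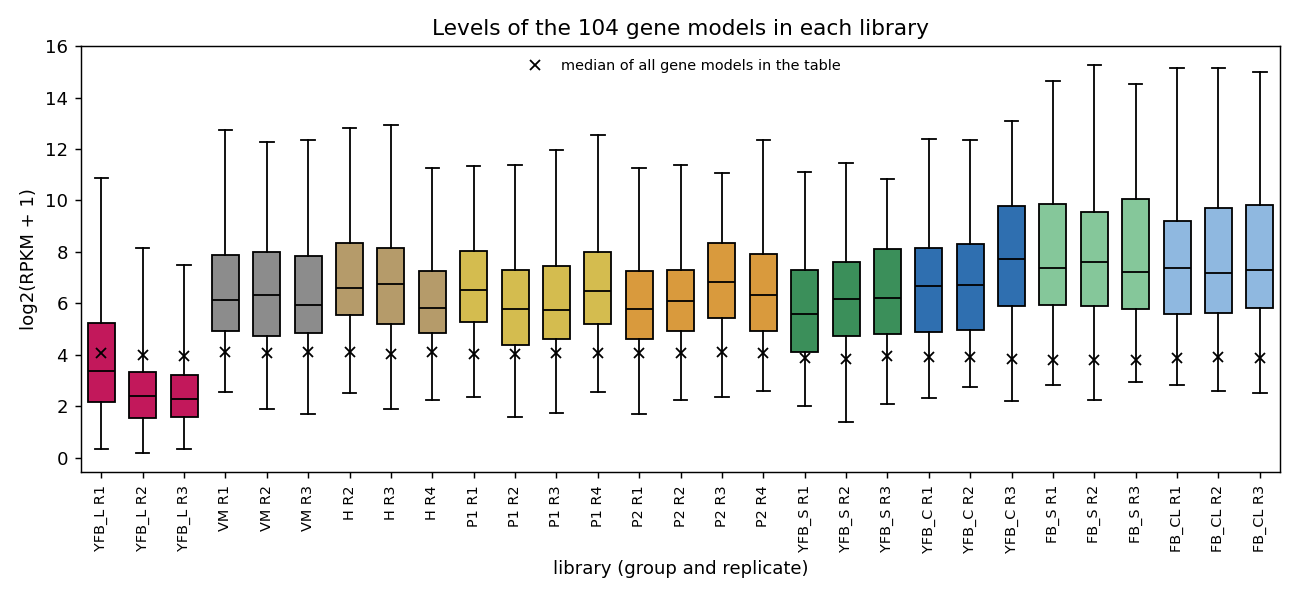
Levels of the 104 gene models in each of the 29 libraries, as log2(RPKM + 1). Boxes span the quartiles with the median as a line, whiskers reach the lowest and highest value, and crosses mark the median of all 12003 gene models. Replicates 2 and 3 of YFB_L have medians of 2.39 and 2.29, replicate 1 of YFB_L 3.38, and all other libraries lie higher.

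Libraries differed in depth between 10736371 and 32199674 counted reads, and replicate 4 of H, of P1 and of P2 had been run on another flow cell than the other 26 libraries. Libraries YFB_L replicate 1 and YFB_C replicate 3 stood apart. Across gene models, log2 CPM (reads relative to the scaled library total) of YFB_L replicate 1 correlated at 0.885 and 0.867 with replicates 2 and 3, which correlated at 0.991 with each other. YFB_C replicate 3 correlated at 0.926 and 0.928 with replicates 1 and 2, which correlated at 0.988. The number of gene models low in lamellae, their share of reads, and the comparisons that use YFB_C are given with and without these libraries.

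The 3 lamella libraries were not equally low. The median level of the 104 was 9.38 RPKM in replicate 1, 4.23 in replicate 2 and 3.91 in replicate 3. Replicate 1 was the highest of the 3 for 84 gene models, or 80.8%, against 47.2% of all 12003 gene models. It exceeded the mean of replicates 2 and 3 by a median of 1.01 on the log2(RPKM + 1) scale, against 0.03 over all gene models. For 19 gene models it lay at or above the lowest of the 8 other medians, so that the low level rested on replicates 2 and 3. For 42 it was at least 1.5 below that median. Replicates 2 and 3 differed from each other by a median of 0.25. Since a median of 3 ignores the highest value, replicate 1 bore little on the choice where it was the highest. The rule used these levels, and the 12003 did not have to pass it, so the contrasts with all gene models are a description alone.

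**Figure D3:**
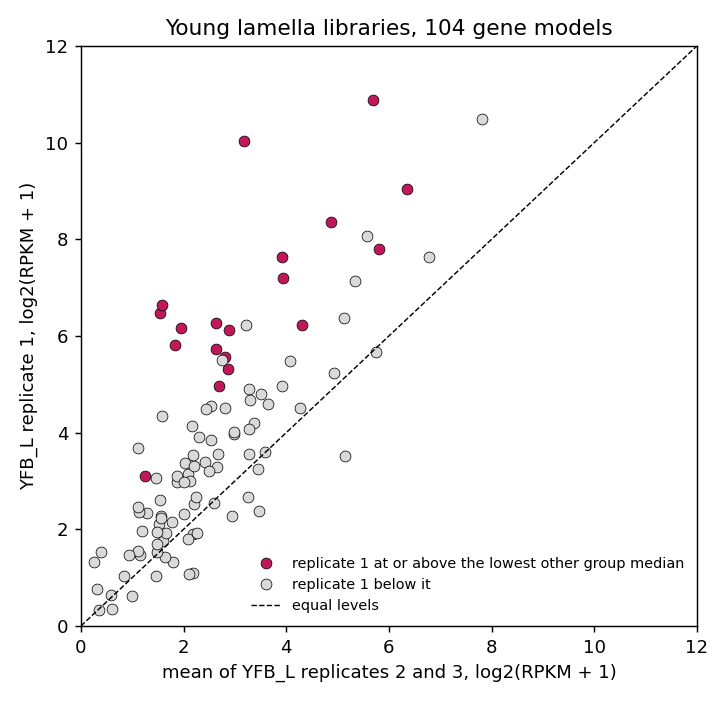
YFB_L replicate 1 (vertical) against the mean of YFB_L replicates 2 and 3 (horizontal), both as log2(RPKM + 1), with a point for each of the 104 gene models. Coloured points are the 19 gene models for which replicate 1 reached the lowest median of the 8 other groups, and most points lie above the dashed line of equal levels.

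All 3 lamella libraries lay below all 26 other libraries for 73 of the 104 gene models, against 3.14% of the 12003 gene models, a contrast that the rule used and from which nothing is read. The other 31 overlapped in at least 1 library. Without YFB_L replicate 1 the rule gave 123 gene models, 102 of them among the 104, which is 98.1% of the 104 and 82.9% of the 123. Without replicate 2 it gave 65, with 60 shared, and without replicate 3 it gave 62, with 57 shared. Without YFB_L replicate 1 and YFB_C replicate 3 together it gave 118, with 98 shared.

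Gene model 545986, of 538 bases, had the largest gap with all libraries, 5.20. Without YFB_L replicate 3 the gap was 3.94, under the 4.45 of gene model 375408 without that library. Gene model 545986 had 11.9, 1.24 and 1.09 RPKM in YFB_L replicates 1 to 3, against 133, 201 and 96.4 in VM, 351, 289 and 202 in H, 237, 434, 490 and 400 in P1, 239, 315, 668 and 262 in P2, 44.2, 81.3 and 129 in YFB_S, 101, 108 and 416 in YFB_C, 2763, 5171 and 2711 in FB_S and 1752, 1713 and 1273 in FB_CL. Every lamella library was below every other library. The mature parts were the highest groups, and YFB_S the lowest outside the lamellae.

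Gene model 375408, of 1314 bases, was steadier outside the lamellae until the mature cap. It had 1.91, 0.386 and 0.253 RPKM in YFB_L, against 46.6, 34.6 and 43.0 in VM, 42.5, 54.9 and 58.5 in H, 61.9, 54.0, 53.8 and 46.1 in P1, 52.4, 27.3, 40.2 and 48.3 in P2, 37.2, 95.2 and 68.4 in YFB_S, 125, 102 and 266 in YFB_C, 44.0, 33.5 and 50.0 in FB_S and 1259, 1188 and 1386 in FB_CL. Again no lamella library reached another group, and FB_CL stood above all the rest. The mature cap contains lamellae, and its level was the highest of all groups.

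The most abundant of the 104, by mean RPKM outside the lamellae, was gene model 486033, of 718 bases. It had 199, 103 and 117 RPKM in YFB_L, against 541, 315 and 367 in VM, 673, 2955 and 558 in H, 2589, 2661, 4002 and 1191 in P1, 2490, 1281, 2083 and 2280 in P2, 868, 1378 and 1506 in YFB_S, 1775, 2702 and 4515 in YFB_C, 25580, 39166 and 23897 in FB_S and 22860, 13163 and 16511 in FB_CL. Its lamella level exceeded the level of most gene models in that tissue, and it was low relative to its levels elsewhere. The groups did not overlap with YFB_L, although VM came close.

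Gene model 356730, of 1026 bases, shows the weight of 1 library. It had 1052, 7.68 and 8.33 RPKM in YFB_L, against 1234, 2903 and 976 in VM, 363, 53.2 and 147 in H, 271, 74.0, 71.1 and 442 in P1, 61.4, 494, 1307 and 399 in P2, 97.3, 318 and 203 in YFB_S, 1042, 1212 and 3637 in YFB_C, 5337, 9885 and 3667 in FB_S and 35982, 36369 and 32614 in FB_CL. Lamella replicate 1 was above every library of H, P1 and YFB_S, while replicates 2 and 3 were below all 26 other libraries. Its gap of 3.94 was 0.53 without YFB_L replicate 2.

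**Figure D4:**
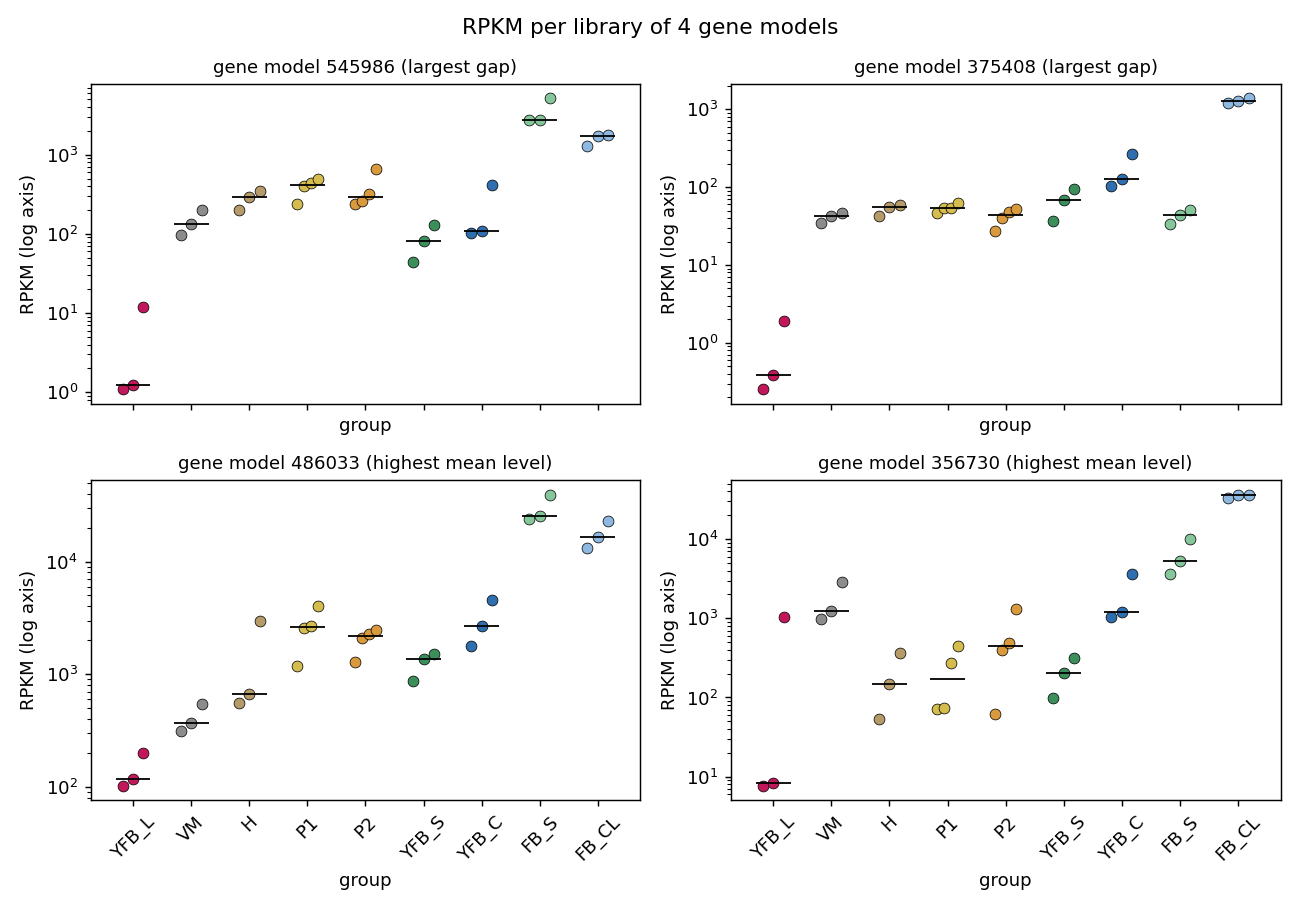
RPKM per library (log axis) of 4 gene models in the 9 groups, with a point per library and a line at the group median. Gene models 545986 and 375408 have the largest gaps, and 486033 and 356730 the highest mean levels outside the lamellae. For 356730 a single YFB_L library, replicate 1 at 1052 RPKM, lies far above replicates 2 and 3.

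Beyond the lamellae the 104 gene models followed no single course. The highest of the 8 other medians lay in FB_S for 32 gene models, FB_CL for 29, VM for 13, YFB_C for 13, YFB_S for 9, H for 5, P1 for 3 and P2 for 0. A mature part was thus the highest for 61, or 58.7%, against 39.1% of the 9035 gene models whose 8 other medians were all at 1 RPKM or more. The lowest of the 8 was YFB_S for 34, or 32.7%, against 14.3% of those 9035. The rule used this lowest median, and the 9035 did not have to pass the rule, so these 2 shares are a description alone. Between the highest and lowest of the 8 medians lay a median of 4.26 on the log2(RPKM + 1) scale, against 2.27 for the 9035. The span was under 2 for 12 of the 104, or 11.5%, against 41.0% of the 9035. The 9035 were not matched to the 104 in level, so the spans too are a description alone.

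Gene model 365164, singled out after its values were seen as the one with the smallest span, 0.96, had near level medians in the other groups. Its single libraries outside the lamellae ran from 34.2 RPKM in YFB_C to 248 RPKM in FB_CL. It had 11.2, 11.4 and 10.6 RPKM in YFB_L, against 89.3, 148 and 102 in VM, 146, 187 and 61.4 in H, 114, 61.8, 149 and 116 in P1, 78.5, 72.0, 113 and 77.5 in P2, 105, 65.0 and 75.2 in YFB_S, 89.5, 79.3 and 34.2 in YFB_C, 113, 244 and 141 in FB_S and 248, 104 and 147 in FB_CL. Here the 3 lamella libraries agree within a narrow range, replicate 1 included, and lie below all others. Of the 6 pairwise comparisons described further on, it was called in FB_CL against YFB_C alone (1.30 ± 0.41 SE on the log2 scale, edgeR adjusted p = 0.00909). That call was lost without YFB_C replicate 3 (0.98 on the log2 scale, edgeR adjusted p = 0.0561), without FB_CL replicate 1 (0.90, adjusted p = 0.0837), with library size alone (0.53, adjusted p = 0.294) and in a fit to these groups only (1.23, adjusted p = 0.0524).

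In length the 104 ran from 234 to 3160 bases, with a median of 1140, against 1315 for all gene models in the table. Of the reads of each, at least 99.5% were unique to that gene model, so near-identical copies took few of them. The libraries did not mark the strand, and reads of genes overlapping on opposite strands were not told apart.

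Comparisons without the young lamellae in the contrast can be tested, with the reservation that the rule put a lower limit on these groups. The lamella libraries still entered the fit and its estimate of the spread. Of all single libraries left out, YFB_L replicate 1 gave the highest count among the 104 in every comparison. Gene models were called where the change was at least 2-fold and its adjusted p, from edgeR's quasi-likelihood test over 11990 gene models, was under 0.05. All 104 were tested. Outside the lamellae their levels were higher and their spans wider than over all gene models, and the shares given for all tested are not matched for this. How much of a higher share among the 104 comes from their level or span was not tested. The comparisons share samples, since YFB_C enters 3 of the 6 pairwise ones and P2, YFB_S and FB_CL enter 2 each. At least 1 of the 6 called 98 of the 104, or 94.2%, against 85.9% of all gene models tested, and 6 were called in none. In the paragraphs below, values per library are RPKM in replicate order, and the change in parentheses is that of the edgeR fit with its SE.

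Young cap, the tissue to which the lamellae are attached, was set against stage 2 primordia, the stage before, which were not divided by tissue. Of the 104, 48 were called, or 46.2%, against 42.7% of all tested, and more of them were higher than lower in the cap. In YFB_C 38 were higher, 36.5%, against 22.0% of all gene models tested, and 10 were lower, 9.62%, against 20.7%. The median log2 change was 0.56, against 0.00 over all tested. Gene model 526917 had 667, 728 and 2350 RPKM in YFB_C, against 38.9, 26.3, 51.1 and 37.1 in P2 (5.03 ± 0.47 SE on the log2 scale, adjusted p = 1.59e-08). Gene model 442596 had 1446, 1878 and 7865 RPKM in YFB_C, against 71.4, 67.6, 237 and 131 in P2 (4.88 ± 1.02 SE on the log2 scale, adjusted p = 0.00032). In both, all caps exceeded all primordia, with replicate 3 far above the other caps. In the other direction, gene model 468458 had 157, 168 and 191 RPKM in YFB_C, against 1430, 2425, 1158 and 5177 in P2 (-3.89 ± 0.82 SE on the log2 scale, adjusted p = 0.000369). Gene model 471999 had 4.72, 7.02 and 8.86 RPKM in YFB_C, against 74.8, 53.8, 101 and 51.9 in P2 (-3.37 ± 0.45 SE on the log2 scale, adjusted p = 1.79e-06). Every primordium exceeded every cap in both.

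With library size alone as the scaling the median of all gene models shifted to -0.89. The counts were then 15 higher, 14.4%, against 8.50% of all tested, and 27 lower, against 43.6% of all tested. Without YFB_C replicate 3, in which the median level of the 104 was 210 RPKM against 101 and 103 in the other caps, 25 were higher and 12 lower, against 17.1% and 17.5% of all tested, and the log2 changes of 526917 and 442596 were 4.18 and 3.71. Without P2 replicate 4 the change of 468458 was -3.28. On the first flow cell alone, which leaves out that library, the counts were again 38 and 10, against 21.2% and 20.4% of all tested.

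Young stipe against stage 2 primordia gave shares nearer to those of all gene models. In YFB_S 18 were higher, 17.3%, against 17.8% of all tested, and 27 were lower, 25.96%, against 21.1%. Their median log2 change was -0.43, against 0.00 over all. Gene model 499539 had 296, 1079 and 217 RPKM in YFB_S, against 11.4, 19.7, 25.4 and 15.4 in P2 (4.89 ± 0.77 SE on the log2 scale, adjusted p = 1.75e-05). Gene model 372882 had 321, 672 and 326 RPKM in YFB_S, against 27.2, 30.1, 34.2 and 32.1 in P2 (3.83 ± 0.48 SE on the log2 scale, adjusted p = 1.06e-06). The stipe libraries exceeded all primordia in both, most of all replicate 2. Gene model 369336 had 7.51, 4.01 and 15.8 RPKM in YFB_S, against 151, 145, 125 and 115 in P2 (-3.88 ± 0.50 SE on the log2 scale, adjusted p = 1.35e-06). Gene model 468458, lower in the cap, was lower here too, with 181, 41.1 and 408 RPKM in YFB_S, against 1430, 2425, 1158 and 5177 in P2 (-3.60 ± 0.81 SE on the log2 scale, adjusted p = 0.000784).

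In the stipe 11 were higher and 41 lower with library size alone, against 9.64% and 32.1% of all tested, the median of all at -0.50. Without YFB_S replicate 1 the counts were 18 and 17, against 16.8% and 19.1% of all tested. They were 18 and 25 on the first flow cell alone, against 17.0% and 20.5% of all tested. On the log2 scale 499539 changed by 3.84 without YFB_S replicate 2, 369336 by -4.54 without YFB_S replicate 3, and 468458 by -4.52 without YFB_S replicate 3 and -2.99 without P2 replicate 4.

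Stipe and cap of young fruiting bodies differed in 56 of the 104, or 53.8%, against 32.6% of all tested. In YFB_S 12 were higher, 11.5%, against 15.1% of all tested, and 44 were lower, 42.3%, against 17.5%. The median log2 change was -1.18, against 0.04 over all. Gene model 378523 had 5.05, 9.02 and 18.4 RPKM in YFB_S, against 663, 819 and 1005 in YFB_C (-6.28 ± 0.59 SE on the log2 scale, adjusted p = 3.6e-08). Gene model 43219 had 6.66, 16.2 and 13.2 RPKM in YFB_S, against 295, 283 and 1412 in YFB_C (-5.79 ± 0.73 SE on the log2 scale, adjusted p = 1.42e-06). Both were abundant in the cap and near 10 RPKM in the stipe. Higher in the stipe was 471999, with 209, 487 and 401 RPKM in YFB_S, against 4.72, 7.02 and 8.86 in YFB_C (5.74 ± 0.51 SE on the log2 scale, adjusted p = 1.88e-08). Gene model 476961 had 1550, 2843 and 1373 RPKM in YFB_S, against 13.5, 11.4 and 135 in YFB_C (5.18 ± 0.83 SE on the log2 scale, adjusted p = 2.8e-05). In YFB_L it had 1.93, 1.18 and 1.15 RPKM, below every young cap.

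With library size alone 17 were higher and 32 lower in the stipe, against 24.8% and 11.9% of all tested, the median of all at 0.44. Without YFB_C replicate 3 the counts were 14, 13.5% of the 104, and 25, the lower ones against 14.1% of all tested. With all libraries 15.1% of all tested were higher in the stipe. Without that library the stipe differed from the cap by 7.27 (log2) for 476961 and by -4.59 for 43219, and without YFB_S replicate 3 by -6.90 for 378523.

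The mature cap, which includes lamellae, was compared with the young cap, which does not. In FB_CL 27 of the 104 were higher, 25.96%, against 23.1% of all tested, and 20 were lower, 19.2%, against 25.0%. Over the 104 the median log2 change was 0.22, against -0.09 over all. The largest rises were steep. Gene model 381900 had 5291, 7312 and 7116 RPKM in FB_CL, against 12.9, 14.3 and 31.9 in YFB_C (8.38 ± 0.84 SE on the log2 scale, adjusted p = 1.46e-08). Gene model 471999 had 970, 850 and 1373 RPKM in FB_CL, against 4.72, 7.02 and 8.86 in YFB_C (7.29 ± 0.55 SE on the log2 scale, adjusted p = 1.84e-10). In the young cap 381900 was near the median of all gene models, 14.0 RPKM, and 471999 was below it. In young lamellae they stood at 3.49 to 5.34 and at 1.05 to 2.02 RPKM. Gene model 448743 had 112, 46.7 and 65.1 RPKM in FB_CL, against 2693, 5192 and 1753 in YFB_C (-5.44 ± 0.80 SE on the log2 scale, adjusted p = 3.65e-06). Gene model 526917 had 163, 125 and 102 RPKM in FB_CL, against 667, 728 and 2350 in YFB_C (-3.26 ± 0.49 SE on the log2 scale, adjusted p = 5.43e-06). For 448743 the mature cap came within reach of the young lamellae, at 146, 18.5 and 11.0 RPKM, and lamella replicate 1 exceeded every mature cap library.

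With library size alone the median of all shifted to -0.78, and 20 were higher and 36 lower, 53.8% in all, against 54.6% of all tested. Without YFB_C replicate 1 the counts were 21 and 21, against 21.9% and 23.5% of all tested. Without YFB_C replicate 3 they were 32 and 18, against 24.2% and 24.7% of all tested, and the log2 change of 526917 was -2.42.

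**Figure D5:**
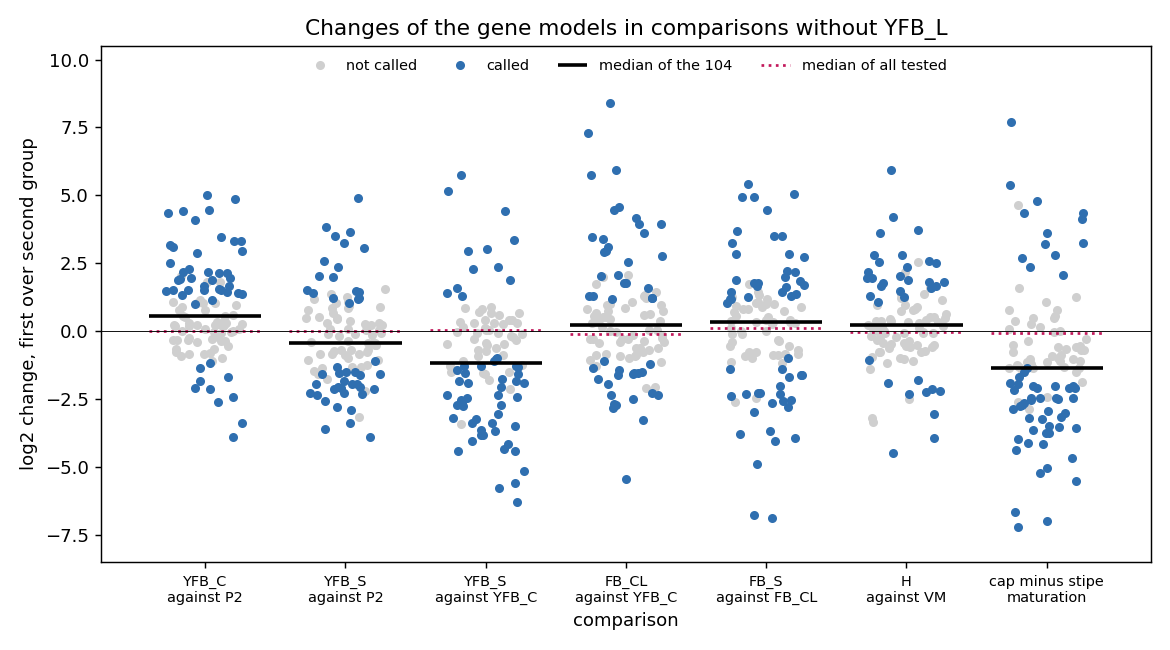
Log2 changes of the 104 gene models in the 6 pairwise comparisons and the cap minus stipe maturation difference, first-named group over second, with a point per gene model. Blue points passed the edgeR adjusted p of 0.05 and 2-fold, black lines mark the median of the 104 and dotted lines that of all tested. The black line lies at -1.18 for YFB_S against YFB_C and at -1.35 for the maturation difference, and within 0.56 of 0 elsewhere.

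Mature stipe and mature cap with lamellae differed in 54 of the 104, or 51.9%, against 39.6% of all tested. In FB_S 30 were higher, 28.8%, against 19.3% of all tested, and 24 were lower, 23.1%, against 20.3%. The median log2 change was 0.35, against 0.10 over all. Gene model 448743 had 3387, 2700 and 3467 RPKM in FB_S, against 112, 46.7 and 65.1 in FB_CL (5.43 ± 0.80 SE on the log2 scale, adjusted p = 5.58e-06). Gene model 367507 had 459, 219 and 330 RPKM in FB_S, against 14.3, 8.29 and 8.18 in FB_CL (5.05 ± 0.39 SE on the log2 scale, adjusted p = 6.19e-10). Both were higher in every mature stipe than in any mature cap, and 367507 stood at 1.79, 0.765 and 1.08 RPKM in YFB_L. The opposite held for gene model 414020, with 91.2, 61.3 and 47.4 RPKM in FB_S, against 5486, 9673 and 8391 in FB_CL (-6.88 ± 0.64 SE on the log2 scale, adjusted p = 8.18e-09). Gene model 368480 had 99.7, 178 and 68.3 RPKM in FB_S, against 11364, 14650 and 11891 in FB_CL (-6.78 ± 1.67 SE on the log2 scale, adjusted p = 0.00172). In YFB_L 414020 stood at 7.05, 3.76 and 3.00 RPKM and 368480 at 13.4, 5.56 and 4.19 RPKM, far from their mature cap levels.

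In the mature stipe 42 were higher and 20 lower with library size alone, against 30.7% and 14.8% of all tested, the median of all at 0.55. At 4-fold 14 were higher and 18 lower, against 7.09% and 11.9% of all tested.

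Maturation changed many of the 104 unequally in cap and stipe. The median log2 change on maturation was 0.22 in the cap, FB_CL over YFB_C, and 1.54 in the stipe, FB_S over YFB_S, against -0.09 and -0.01 over all tested. The difference of these 2 changes, tested as 1 contrast, was called for 57, or 54.8%, against 37.5% of all tested. It was lower in the cap for 44, 42.3%, against 19.3% of all tested, and higher for 13, 12.5%, against 18.2%. The same contrast is the change of YFB_S over YFB_C less that of FB_S over FB_CL. The medians of these were -1.18 and 0.35, so the result is not independent of them. Among the 44, the fitted change was below 0 in the cap and above 0 in the stipe for 30, above 0 in both for 12 and below 0 in both for 2. For gene model 375667 the log2 change was -2.37 in the cap and 4.84 in the stipe (difference -7.21 ± 1.28 SE, adjusted p = 8.5e-05). It had 395, 133 and 183 RPKM in FB_CL against 455, 779 and 2435 in YFB_C, and 4293, 6477 and 4854 in FB_S against 115, 107 and 324 in YFB_S. For 448743 the change was -5.44 in the cap and 1.55 in the stipe (difference -6.99 ± 1.03 SE, adjusted p = 8.83e-06).

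The opposite pattern was led by gene model 414020, at 4.45 in the cap and -3.25 in the stipe (difference 7.70 ± 0.79 SE, adjusted p = 5.2e-08). It had 5486, 9673 and 8391 RPKM in FB_CL against 177, 244 and 658 in YFB_C, and 91.2, 61.3 and 47.4 in FB_S against 768, 541 and 597 in YFB_S. Gene model 483231 changed by 3.94 in the cap and -1.44 in the stipe (difference 5.38 ± 0.92 SE, adjusted p = 5.58e-05), at a level of 0.255 to 0.290 RPKM in YFB_L. It had 102, 102 and 78.5 RPKM in FB_CL against 6.54, 8.39 and 3.55 in YFB_C. Its stipe ranges overlapped, at 8.06, 3.70 and 8.51 RPKM in FB_S against 12.2, 1.63 and 41.1 in YFB_S. Among the 13, the fitted change was above 0 in the cap and below 0 in the stipe for 6, and otherwise for 7. The mature and young caps differ in stage and in the presence of lamellae, which cannot be told apart here. Without YFB_C replicate 3 the counts were 15 higher and 30 lower, against 17.9% and 17.3% of all tested, and the differences of 414020 and 375667 were 8.48 and -6.22. Without YFB_S replicate 3 those of 483231, 375667 and 448743 were 3.99, -7.92 and -7.58.

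Hyphal knots against mycelium, the first step of fruiting, called 35 of the 104, or 33.7%, against 19.9% of all tested. In H 25 were higher, 24.0%, against 11.0% of all tested, and 10 were lower, 9.62%, against 8.98%. In the median the 104 changed by 0.22 on the log2 scale, against -0.02 over all. Gene model 442596 had 2715, 1874 and 102 RPKM in H replicates 2 to 4, against 16.9, 35.7 and 24.1 in VM (5.93 ± 1.21 SE on the log2 scale, adjusted p = 0.000964). Gene model 499539 had 464, 232 and 16.7 RPKM in H, against 11.9, 10.4 and 16.4 in VM (4.21 ± 0.84 SE on the log2 scale, adjusted p = 0.000826). For the second, replicate 4 of H, from the other flow cell, was barely above mycelium. Gene model 481642 had 79.1, 11.3 and 57.2 RPKM in H, against 957, 1520 and 818 in VM (-4.48 ± 1.13 SE on the log2 scale, adjusted p = 0.00546). Gene model 496607 had 99.8, 96.8 and 118 RPKM in H, against 1709, 1813 and 1266 in VM (-3.93 ± 0.83 SE on the log2 scale, adjusted p = 0.00125). In YFB_L 442596 stood at 71.2, 6.15 and 1.10 RPKM, with replicate 1 above every VM library. There 481642 stood at 76.1, 6.84 and 3.95 RPKM, with replicate 1 above H replicates 3 and 4. The lamella libraries of 499539 and 496607 were below every library of H and VM.

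Fewer gene models were called without some single libraries, among the 104 and among all. Without H replicate 3, 14 were higher and 9 lower, 22.1% in all, against 13.5% of all tested. Without VM replicate 3, 16 were higher and 10 lower, and without VM replicate 1 or 2, 18 were higher. Those 3 fits called 25.0% to 26.9% of the 104, against 16.1% to 17.0% of all tested. On the first flow cell alone, where H had 2 libraries, 26 were higher and 9 lower, against 11.2% and 7.24% of all tested. The log2 changes of 442596 and 499539 were 5.27 and 3.28 without H replicate 2, and 4.99 and 3.19 with limma on log2(RPKM + 1).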

How the data were processed

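Polyadenylated RNA of 29 libraries was measured, grouped and numbered by sample title. The authors deposited, per library, total and unique read counts, TPM and gene model length, per the file headers, and 1 table of log2 RPKM for 12003 gene models. R 3.0.2, edgeR 3.4.2 and limma 3.18.13 are named in the submitters' processing notes. How reads were mapped, and to which assembly, is not given in the sources used here. The library kit named in the labels' protocols does not mark the strand. The TPM values deposited by the authors were not used. RPKM are 2 to the power of the deposited log2 values. The table's scaling differed from TMM factors of the counts by at most 0.00415 (log2), and mean TMM factors ran from 0.459 in FB_CL to 1.41 in VM.

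The gene models were chosen as stated at the start of the report, and they, the comparisons and the lists were fixed with earlier results of these data known. Total counts of all 29 libraries were fitted in edgeR 4.0.16 (R 4.3.3) with 1 quasi-likelihood model, a coefficient per group, TMM scaling and filterByExpr, which kept 11990 of 14242 gene models and all 104 of those described. Adjusted p-values are Benjamini-Hochberg over the 11990. The SE is the log2 change divided by the square root of F, and is approximate. Gene models were named by a rule: the 2 largest gaps, the 2 highest mean RPKM outside the lamellae, those on either side of the threshold, and in each comparison up to 2 rises and 2 falls among those called, with CPM ranges that do not overlap (a condition not set for the maturation difference) and a mean of at least 10 RPKM in the higher group. The labels do not say that replicates came from separate cultures, so p-values measure the spread between these libraries. Precision is limited by the 3 or 4 libraries a group and, at the lowest lamella levels, by depth.

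The tools tried besides were DESeq2 1.42.0 and limma 3.58.1 with trend at a pseudocount of 1 or 0.1 RPKM. Further alternatives were scaling by relative log expression or library size alone, 4-fold, no filter or one of 10 CPM in 3 libraries, a block for the replicate number, libraries of the first flow cell, fits to the compared groups, other settings of the rule, and the omission of each library. The joint omission of YFB_L replicate 1 and YFB_C replicate 3 was chosen after seeing the data, as were the alternatives for 365164 and for the share of reads.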

Additional observations from a re-analysis of the deposited data

Results flagged for a closer look

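The maturation change of cap and stipe differed, by the test of the difference itself, for 57 of the 104 gene models, or 54.8%, against 37.5% of all tested. Among those named, the log2 difference, cap minus stipe, was 7.70 for gene model 414020, 5.38 for 483231, -7.21 for 375667 and -6.99 for 448743. The contrast shares its samples with the comparisons of stipe and cap given above, and is not independent of them. The mature cap was sampled with lamellae and the young cap without, and the part of this in the differences was not tested.

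In groups of 4 libraries, 1 of 50 sets of values had a library far from the others. Gene model 526917 had 56.5 RPKM in P1 replicate 1, against 35.1, 38.0 and 38.3 RPKM in the other libraries of P1. Chance flags about 1 in 20 such sets.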

How the results depend on the processing

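The number of gene models low in young lamellae depended on the rule. It was 248 at a threshold of 1, 48 at 2, 183 with a pseudocount of 0.1 RPKM, and 67 with library size alone, 60 of them among the 104. Leaving out 1 library gave 62 to 130, the lowest without YFB_L replicate 3 and the highest without YFB_S replicate 1. The gap of 428679 reversed to -0.0596 with library size alone. The cause was not tested. Counts of called gene models stayed within 1.5 times under the other tools, scalings, filters and sample sets of the methods, except at 4-fold and, for H against VM, without H replicate 3. Counts do not show which gene models were called, and for YFB_C against P2 with library size alone 25 of the 42 were among the 48. At 4-fold they were 25 for YFB_C against P2 (24.0%, against 18.4% of all tested), 24 for YFB_S against P2 (23.1%, against 15.7%), 37 for YFB_S against YFB_C (35.6%, against 14.3%), 28 for FB_CL against YFB_C (26.9%, against 24.4%), 32 for FB_S against FB_CL (30.8%, against 19.0%) and 19 for H against VM (18.3%, against 8.81%). For H against VM, leaving out 1 library gave 23 to 40, the lowest without H replicate 3 and the highest without YFB_L replicate 1. The 28 log2 changes named by the rule were chosen as large called changes in these same libraries, which favours keeping the call. All 28 kept their direction, and their call, in the 1148 alternative values. Values moved by over 1.5 times in some. With library size alone 526917 and 442596 were at 3.97 and 3.78, 468458 and 471999 at -4.81 and -4.32 for YFB_C against P2, 499539 at 4.29 for YFB_S against P2, 476961 at 5.84 for YFB_S against YFB_C, and 381900, 471999 and 448743 at 7.77, 6.63 and -6.18 for FB_CL against YFB_C. With limma on log2(RPKM + 1) 476961 was at 5.98 for YFB_S against YFB_C and 483231 at 4.40 for the maturation difference. With the replicate number as a block 468458 was at -2.94 for YFB_S against P2, and on the first flow cell at -2.99 there and at -3.28 for YFB_C against P2. The log2 change of 365164, chosen after its values were seen, ran from 0.53 to 1.55 and lost its call in 6 of 41. The correlation of same-numbered deviations from group means ran from -0.29 to 0.40. With 3 or 4 libraries a group, it cannot settle whether replicate numbers pair the libraries. With the replicate number as a block the counts were 46 for YFB_C against P2 (44.2%, against 41.7% of all tested), 44 for YFB_S against P2 (42.3%, against 37.6%), 51 for YFB_S against YFB_C (49.0%, against 32.1%), 48 for FB_CL against YFB_C (46.2%, against 47.8%), 53 for FB_S against FB_CL (51.0%, against 39.6%), 34 for H against VM (32.7%, against 19.4%) and 57 for the maturation difference (54.8%, against 37.1%). Without YFB_L replicate 1 and YFB_C replicate 3 together they were 43 for YFB_C against P2 (41.3%, against 36.7% of all tested), 52 for YFB_S against P2 (50.0%, against 41.0%), 52 for YFB_S against YFB_C (50.0%, against 29.9%), 53 for FB_CL against YFB_C (51.0%, against 50.8%), 59 for FB_S against FB_CL (56.7%, against 41.9%), 41 for H against VM (39.4%, against 23.9%) and 55 for the maturation difference (52.9%, against 39.2%). Depth limits the lowest lamella levels, where 12 reads over 3 libraries stand behind a gene model.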
